A study of Homo sapiens with 12 samples.

Results

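The GLUT glucose transporters encoded by 5 SLC2A genes, the PFKFB enzymes that set the pace of glycolysis at phosphofructokinase (3 genes), and TIGAR were followed across sunitinib-sensitive and sunitinib-resistant clear cell renal cell carcinoma (ccRCC) cells. These 9 genes (SLC2A1, SLC2A3, SLC2A6, SLC2A8, SLC2A12, PFKFB2, PFKFB3, PFKFB4 and TIGAR) were taken by symbol from a table of 45478 genes, and each symbol matched 1 gene. All 9 passed the filter on low counts, which left 19929 genes in all. The mRNA libraries came from 4 groups of 3: parental 786-O, sunitinib-resistant 786-O, parental A498 and sunitinib-resistant A498 (below, resistant 786-O and resistant A498). Both parental lines are established human ccRCC lines grown in medium with 25 mM glucose. By the study's description, resistant 786-O was derived from parental 786-O by selection at 4 µM sunitinib, an inhibitor of receptor tyrosine kinases. By the same description, resistant A498 was derived from parental A498 at 2 µM. Both selections ran over more than 20 passages. The libraries of every group carry the treatment label none, and no sunitinib dose is given for the cells at harvest. The library codes in the sample titles of all groups contain the letters veh. Each resistant line was selected as a single named culture, and nothing states that the replicate libraries came from separate cultures, so p-values measure the spread between these libraries.

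The GLUT proteins carry hexoses down their gradient. GLUT1 (encoded by SLC2A1) and GLUT3 (SLC2A3) take up glucose at the plasma membrane with high affinity. GLUT6 (SLC2A6) and GLUT8 (SLC2A8) reside mostly in intracellular compartments of the lysosomal pathway. GLUT12 (SLC2A12) has been described as responsive to insulin. Inside the cell, the PFKFB enzymes both make and break down fructose bisphosphate in its regulatory form, the strongest activator of phosphofructokinase, and the balance between the 2 activities differs among PFKFB2, PFKFB3 and PFKFB4. TIGAR, a target of p53, is related to their phosphatase domain and lowers the same metabolite. In ccRCC, loss of VHL stabilizes hypoxia-inducible factors, whose known targets include SLC2A1, SLC2A3, PFKFB3 and PFKFB4.

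Several properties of the libraries bear on every value below. Total counts ran from 20042519 to 47972092, with a median of 37898338. No batch label is shared between groups, and batch and group cannot be told apart. The libraries labelled resistant A498 lay nearer to parental 786-O and resistant 786-O than to parental A498: their median correlation of log2 CPM across genes, which are not independent replicates, was 0.870 with parental A498, 0.951 with parental 786-O and 0.982 with resistant 786-O. The same median was 0.868 between parental 786-O and parental A498 and 0.990 among the resistant 786-O libraries. The resistant A498 libraries are therefore compared below with parental A498 and with parental 786-O. In resistant 786-O, replicate 2 stood apart. The SD of its log2 deviation from the mean of the other libraries of its group was 0.295 over 10085 genes. It was 0.0748 to 0.176 in the 11 other libraries. Some results that rest on resistant 786-O are also given without replicate 2. Among the kidney and ccRCC markers, PAX8, PAX2 and VIM were present in all groups, and CA9, a marker of ccRCC, was at no more than 0.02 CPM in parental 786-O, resistant 786-O and resistant A498 and at 1.29 CPM in parental A498. Of 11 T cell markers, 10 stayed under 1 CPM in all groups, CD2 and GZMB were at 0, and the summed level of 27.5 to 208 CPM came from IL7R. Of 6 fibroblast and endothelial markers, PDGFRB and LUM passed 1 CPM in any group, and the list summed to 4.68 to 4.84 CPM in parental 786-O, 7.72 to 8.79 in resistant 786-O, 0.637 to 0.743 in parental A498 and 21.6 to 23.6 in resistant A498. IL7R averaged 62.8 CPM in parental 786-O, 142 in resistant 786-O, 29.2 in parental A498 and 82.5 in resistant A498. The part of these markers in the results was not tested.

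SLC2A6, SLC2A8 and SLC2A12 were called in the same direction in resistant 786-O against parental 786-O and in resistant A498 against parental A498 and have a promoter entry in RefSeq. The first 2 were higher in the resistant lines, and SLC2A12 was lower. Their upstream stretches are shown because they contrast in base composition. Among the other genes with an entry, given below, GC-rich stretches did not go with a rise alone. The GC and length trend below uses the GC content of the exons and not that of these stretches. Each runs from base 250 to base 51 before the start of the gene in RefSeq (GRCh38.p14), 5′ to 3′ on the strand of the gene. That of SLC2A6 lies at chr9:133479150-133479349 on the minus strand, that of SLC2A8 at chr9:127396919-127397118 on the plus strand and that of SLC2A12 at chr6:134052675-134052874 on the minus strand. Capitals mark the GC box (GGGCGG) and the CCAAT box (CCAAT), searched on both strands. The ACGTG form of the hypoxia response core (below, the hypoxia core) and the E-box (CACGTG, which contains it) were searched as well. They are in none of the 3 stretches. The GCGTG form of the core was not searched in any stretch, and its letters occur in the printed stretch of SLC2A6.
SLC2A6: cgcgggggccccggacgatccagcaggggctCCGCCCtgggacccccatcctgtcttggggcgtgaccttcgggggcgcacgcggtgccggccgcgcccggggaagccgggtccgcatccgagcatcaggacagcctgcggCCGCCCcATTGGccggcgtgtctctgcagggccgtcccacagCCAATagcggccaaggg
SLC2A8: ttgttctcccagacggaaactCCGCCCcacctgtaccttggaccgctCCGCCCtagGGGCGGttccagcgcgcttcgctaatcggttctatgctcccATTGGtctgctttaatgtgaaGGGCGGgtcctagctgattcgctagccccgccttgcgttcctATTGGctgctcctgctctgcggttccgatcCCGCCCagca
SLC2A12: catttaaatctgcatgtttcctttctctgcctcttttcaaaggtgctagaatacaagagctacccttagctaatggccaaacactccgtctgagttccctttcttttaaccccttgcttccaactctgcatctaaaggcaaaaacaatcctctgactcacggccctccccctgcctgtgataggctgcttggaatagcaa
The stretch of SLC2A6 held 2 GC boxes and 2 CCAAT boxes at a GC content of 75.5%, and that of SLC2A8 held 5 and 2 at 61.0%. That of SLC2A12 held none of the motifs at 46.0%. Among 35116 stretches of the same length and position, 35.0% held the GC box, 27.4% the CCAAT box, 14.4% the hypoxia core and 4.5% the E-box, and the mean GC content was 56.5%. Of the 9 genes, 7 had an entry. The hypoxia core occurred in the stretch at the second listed start of PFKFB3 (chr10:6202682-6202881, plus strand), with 2 matches, 1 on each strand, that both lie in the same E-box, and once in that of TIGAR (chr12:4320963-4321162, plus strand). SLC2A1 had 2 GC boxes and PFKFB4 had 4 and neither held the ACGTG form of the core in this window. TIGAR held 3 GC boxes and 1 CCAAT box, and the stretches at the first and second listed starts of PFKFB3 held 4 and 2 GC boxes. The stretches of SLC2A1, PFKFB4, TIGAR and PFKFB3 all had a GC content above the mean of 56.5%. In resistant 786-O, PFKFB3 was called higher, PFKFB4 and TIGAR were called lower and SLC2A1 was not called. A GC-rich stretch with GC boxes thus occurred with a rise, with a fall and with no call. A match is a run of letters and not a measured site.

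In resistant 786-O, 5 of the 9 genes were higher than in parental 786-O (SLC2A3, SLC2A6, SLC2A8, PFKFB2 and PFKFB3), 3 were lower (SLC2A12, PFKFB4 and TIGAR) and SLC2A1 was not called. Among all 19929 genes tested, 68.5% were called in this comparison, 35.0% higher and 33.5% lower, so a called gene was the rule. In bulk mRNA such as this, fewer cells with a transcript and less of it per cell cannot be told apart. The median log2 fold change of the 9 was 0.23, against 0.03 for all genes. In the libraries labelled resistant A498, 4 genes were higher than in parental A498 (SLC2A3, SLC2A6, SLC2A8 and PFKFB2), SLC2A12 was lower and 4 were not called, where 72.7% of all genes were called, 36.3% higher and 36.4% lower. The median of the 9 was 0.05 and that of all genes 0.00. Against parental 786-O, the resistant A498 libraries had 4 genes higher (SLC2A3, SLC2A6, SLC2A12 and PFKFB2), 2 lower (SLC2A1 and PFKFB3) and 3 not called, with a background of 63.6%, of which 31.6% were higher and 32.1% lower. Between the parental lines, 4 genes were higher in parental 786-O than in parental A498 (SLC2A1, SLC2A6, SLC2A8 and PFKFB3), 2 were lower (SLC2A12 and PFKFB2) and 3 were not called, beside 74.2% of all genes, 38.2% higher and 36.1% lower. The parental 786-O libraries are shared by some of these comparisons and the parental A498 libraries by others, so that the comparisons are not independent. Calls were made by edgeR's quasi-likelihood test at a Benjamini-Hochberg adjusted p under 0.05 over all genes, and CPM is the count scaled to the TMM-normalized library size.

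**Figure D1:**
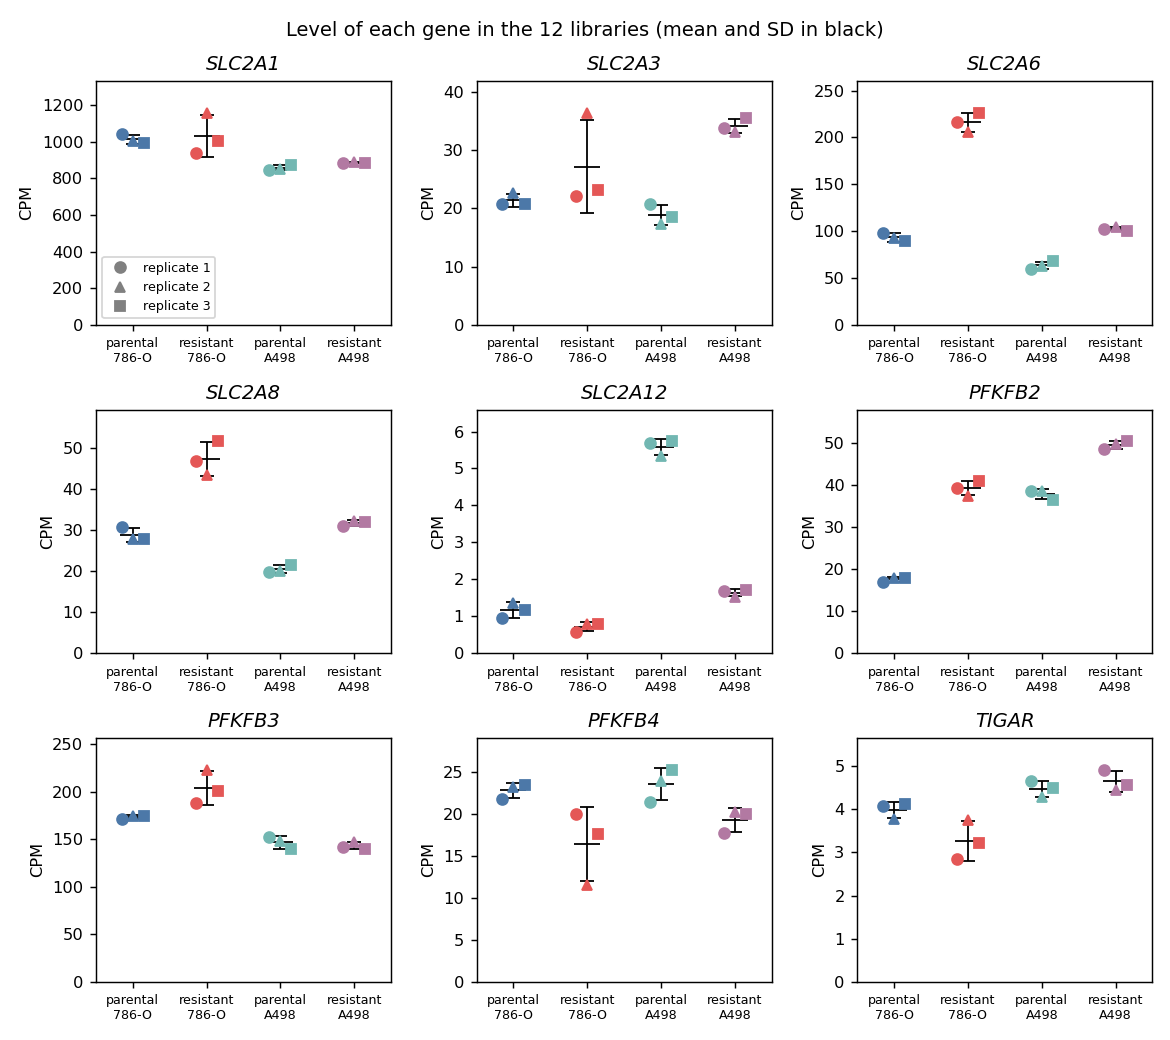
Level of each gene in CPM (y axis, linear, from 0) in the 12 libraries, by group (x axis); symbols are replicates, and black bars are the mean and SD of 3 libraries. SLC2A6 and PFKFB2 in resistant 786-O lie above all parental 786-O libraries, SLC2A12 is highest in parental A498, and the triangle of resistant 786-O stands off for SLC2A3 and PFKFB4.

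SLC2A1 (chromosome 1, 42925353 to 42958893, minus strand, GRCh38 as in GENCODE 44, for all positions of genes here), the main glucose importer of most cultured cells, was read at 1042, 1005 and 994 CPM in replicates 1 to 3 of parental 786-O and at 937, 1159 and 1005 CPM in resistant 786-O. In parental A498 it was at 848, 854 and 874 CPM and in resistant A498 at 883, 889 and 887 CPM. The parental 786-O and resistant 786-O libraries overlapped, and both lay above the parental A498 and resistant A498 libraries, whose ranges did not overlap but were separated by a small gap. The log2 fold change of resistant 786-O over parental 786-O was 0.03 with a 95% confidence interval from -0.10 to 0.16 (adjusted p = 0.70, edgeR), which turned to -0.06 without resistant 786-O replicate 2 and to -0.24 (adjusted p = 0.0028) when the dependence of each library on GC content and exon length was removed (the GC and length trend). Scaled by library size alone it was 0.17 and called (adjusted p = 0.014). That of resistant A498 over parental A498 was 0.05, with an interval from -0.08 to 0.17 (adjusted p = 0.51), and 0.26 with the GC and length trend removed (adjusted p = 0.0014). SLC2A1 was lower in resistant A498 than in parental 786-O, by a log2 fold change of -0.19 (SE 0.06, adjusted p = 0.011), which was no longer called without any 1 of the resistant A498 libraries (-0.17 each, adjusted p of 0.063 at most) or once scaled by library size alone (-0.04, adjusted p = 0.53). It was higher in parental 786-O than in parental A498, by 0.24 (SE 0.06, adjusted p = 0.0022). The level of this transcript spanned 1.20-fold between the highest and the lowest group mean.

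SLC2A3 (chromosome 12, 7919230 to 8019007, minus strand), whose product is the high-affinity transporter of neurons, was at 20.8, 22.6 and 20.7 CPM in parental 786-O, 20.8, 17.3 and 18.5 CPM in parental A498, and 33.8, 33.05 and 35.4 CPM in resistant A498. In resistant 786-O the 3 libraries were at 22.0, 36.4 and 23.1 CPM, so that replicate 2 was just above the resistant A498 libraries and replicates 1 and 3 were close to parental 786-O. The rise in resistant 786-O, 0.34 on the log2 scale (SE 0.14, adjusted p = 0.043), was 0.07 without replicate 2 (adjusted p = 0.28) and was no longer called. It was also not called without any 1 of the parental 786-O libraries (0.32, 0.38 and 0.32, adjusted p of 0.11 at most), with the 2 groups fitted alone (0.38, adjusted p = 0.090) or with the GC and length trend removed (0.20, adjusted p = 0.25). The rise in resistant A498 did not turn on one library: it was 0.85 over parental A498 (SE 0.15, adjusted p = 0.00012) and 0.67 over parental 786-O (SE 0.14, adjusted p = 0.00085), and the resistant A498 libraries lay above all libraries of both parental groups. Parental 786-O and parental A498 overlapped (0.17, interval from -0.14 to 0.49, adjusted p = 0.31), a difference that was called at 0.23 without a filter on low counts (adjusted p = 0.018). The neighbouring SLC2A14 is a near-identical copy, and reads that fit both genes could be lost to either. Its own count was no more than 6 in any library, against 373 to 1590 for SLC2A3.

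SLC2A6 (chromosome 9, 133471094 to 133479127, minus strand), an intracellular transporter, was the one of the 5 transporters with the largest rise in resistant 786-O, from 98.2, 92.3 and 89.4 CPM in parental 786-O to 217, 206 and 226 CPM. It was at 60.0, 62.8 and 67.7 CPM in parental A498 and 103, 104 and 101 CPM in resistant A498. No 2 groups overlapped, and the order from the highest was resistant 786-O, resistant A498, parental 786-O and parental A498, with a 3.41-fold span of the means. The rise was 2.32-fold in resistant 786-O (log2 1.21, SE 0.05, adjusted p = 7.6e-11) and 1.61-fold in resistant A498 over parental A498 (log2 0.69, SE 0.06, adjusted p = 2.7e-08), and both were called in every edgeR and DESeq2 fit that was run, each library left out in turn included. Against parental 786-O, the rise in resistant A498 was 0.13 on the log2 scale (SE 0.05, adjusted p = 0.044) and became -0.13 when the GC and length trend was removed (adjusted p = 0.013). That call was lost without parental 786-O replicate 2 or 3 (0.12 and 0.10) and without resistant A498 replicate 1 or 2 (0.16 and 0.15), and without a filter on low counts (0.12). The transcript has a GC content of 64.1%, the highest of the 9, and with that trend removed the rise in resistant 786-O was 0.61 and that in resistant A498 over parental A498 1.16, so that the order of the 2 rises turned.

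SLC2A8 (chromosome 9, 127397138 to 127408424, plus strand), which encodes another intracellular transporter, followed the same order of groups. It was at 30.8, 27.8 and 27.8 CPM in parental 786-O, 46.9, 43.4 and 51.6 CPM in resistant 786-O, 19.8, 20.0 and 21.5 CPM in parental A498 and 31.0, 32.1 and 32.0 CPM in resistant A498. No neighbouring groups overlapped, although the highest parental 786-O library, at 30.8 CPM, came next to the lowest resistant A498 library, at 31.0 CPM. The rises over the own parental group were 0.72 in resistant 786-O (SE 0.07, adjusted p = 2.0e-07) and 0.63 in resistant A498 (SE 0.07, adjusted p = 1.2e-06). Their difference was -0.08 with an interval from -0.29 to 0.13 (adjusted p = 0.47). Against parental 786-O, resistant A498 was at 0.14 and not called (interval from -0.01 to 0.29, adjusted p = 0.091), and at -0.06 with the GC and length trend removed. It was called at 0.29 once scaled by library size alone (adjusted p = 0.0020), at 0.18 with at least 10 counts in every library (adjusted p = 0.029) or with the 2 groups fitted alone (adjusted p = 0.0017), and at 0.19 without parental 786-O replicate 1 (adjusted p = 0.048). At a GC content of 61.1%, the corrected rises were 0.23 in resistant 786-O (adjusted p = 0.0021) and 1.07 in resistant A498 over parental A498 (adjusted p = 6.8e-10), both still called, and their difference turned to 0.84 (adjusted p = 3.8e-07).

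SLC2A12 (chromosome 6, 133987581 to 134052624, minus strand) had the lowest level per kilobase and the widest span of the 5 transporters, 7.77-fold between parental A498 and resistant 786-O. It was at 5.70, 5.34 and 5.74 CPM in parental A498 and at 1.68, 1.53 and 1.72 CPM in resistant A498. In parental 786-O it was at 0.95, 1.37 and 1.18 CPM and in resistant 786-O at 0.57, 0.80 and 0.79 CPM. These levels rest on 115 to 197 counts per library in parental A498, 32 to 45 in resistant A498 and 28 to 53 in parental 786-O and resistant 786-O. The 4 groups did not overlap. The fall was -1.76 on the log2 scale in resistant A498 against parental A498 (SE 0.15, adjusted p = 6.7e-08) and -0.70 in resistant 786-O against parental 786-O (SE 0.18, adjusted p = 0.0033), and parental 786-O against parental A498 was at -2.26 (SE 0.15, adjusted p = 2.3e-09). With every library thinned to the smallest, the fall in resistant 786-O was -0.57 and not called (adjusted p = 0.065). The resistant A498 libraries were thus between those of the parental lines and 0.50 above parental 786-O (SE 0.18, adjusted p = 0.023), a call that was lost without parental 786-O replicate 1 (0.37) and without resistant A498 replicate 1 or 3 (0.51 and 0.49), without a filter on low counts (0.49) and with thinning (0.45). TBPL1 overlaps SLC2A12 on the opposite strand. By the study's methods the 2 were counted apart by strand, and how well the strands were separated was not tested.

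**Figure D2:**
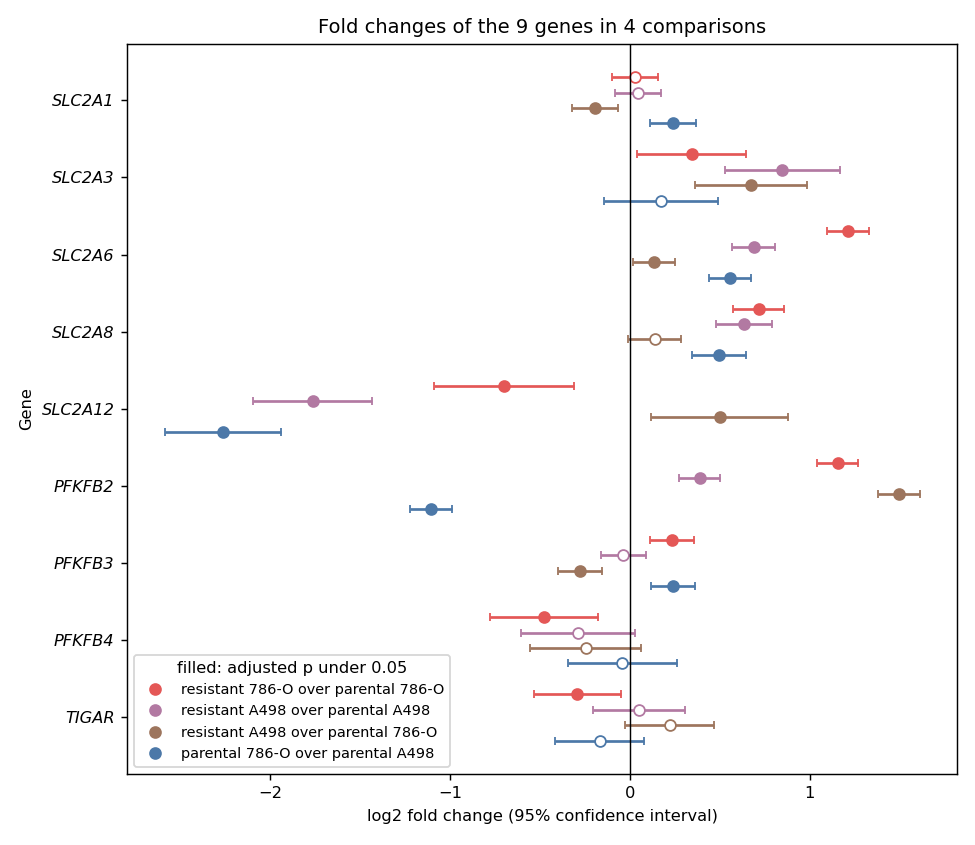
Log2 fold change (x axis) of the 9 genes (y axis) in 4 comparisons from a single edgeR fit of the 12 libraries; bars are 95% confidence intervals, and filled points had an adjusted p under 0.05. SLC2A6 and SLC2A8 are right of 0 for both resistant lines over their parental lines, SLC2A12 is left of 0, and PFKFB2 is higher in both resistant lines and lower in parental 786-O than in parental A498.

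PFKFB2 (chromosome 1, 207034366 to 207081024, plus strand), the isoform first described in heart, whose kinase activity is raised by phosphorylation, rose most among the 3 PFKFB enzymes followed here. It was at 16.9, 17.9 and 18.0 CPM in parental 786-O and at 39.2, 37.5 and 40.8 CPM in resistant 786-O. In parental A498 it was at 38.6, 38.6 and 36.4 CPM and in resistant A498 at 48.5, 49.8 and 50.4 CPM. Parental 786-O was the lowest group by a wide gap, resistant 786-O overlapped with parental A498, and resistant A498 was above all others. The rise was 2.23-fold in resistant 786-O (log2 1.16, SE 0.05, adjusted p = 1.0e-10), 1.31-fold in resistant A498 over parental A498 (log2 0.39, SE 0.05, adjusted p = 8.5e-06) and 2.82-fold in resistant A498 over parental 786-O (log2 1.50, SE 0.05, adjusted p = 8.4e-12). With the GC and length trend removed the first was 1.03 and the second 0.20 on the log2 scale, both still called. PFKFB2 was the gene of the 9 with the largest log2 fold change of resistant A498 over parental 786-O. YOD1 lies on the opposite strand of PFKFB2 and, by the study's methods, was counted apart by strand, which was likewise not tested.

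PFKFB3 (chromosome 10, 6144934 to 6254644, plus strand), the isoform with the strongest kinase activity, was at 171, 175 and 175 CPM in parental 786-O, 188, 223 and 201 CPM in resistant 786-O, 153, 148 and 139 CPM in parental A498 and 142, 147 and 140 CPM in resistant A498. The resistant 786-O libraries were above those of parental 786-O, while parental A498 and resistant A498 overlapped. The rise in resistant 786-O was 0.23 on the log2 scale (SE 0.06, adjusted p = 0.0022), 0.16 without replicate 2, and -0.10 when the GC and length trend was removed (adjusted p = 0.16). In resistant A498 over parental A498 the log2 fold change was -0.04, with an interval from -0.16 to 0.09 (adjusted p = 0.58). It was 0.03 with scaling by library size alone and 0.24 with the trend removed (adjusted p = 0.0022), so that its direction depended on the scaling. Resistant A498 was lower than parental 786-O by a log2 fold change of -0.28 (SE 0.06, adjusted p = 0.00068), which was -0.13 and not called once scaled by library size alone (adjusted p = 0.057).

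PFKFB4 (chromosome 3, 48517684 to 48562015, minus strand), the isoform first found in testis, was at 21.8, 23.2 and 23.4 CPM in parental 786-O, 20.0, 11.5 and 17.6 CPM in resistant 786-O, 21.4, 23.9 and 25.2 CPM in parental A498 and 17.7, 20.2 and 19.9 CPM in resistant A498. The lowest library by far was replicate 2 of resistant 786-O. The fall in resistant 786-O was -0.48 on the log2 scale (SE 0.14, adjusted p = 0.0074) and -0.28 without that library (SE 0.07, adjusted p = 0.00042), a smaller value that was still called. Scaled by library size alone, it was -0.33 and not called (adjusted p = 0.055), and it was -0.80 with the GC and length trend removed (adjusted p = 0.00012). Resistant A498 had a log2 fold change of -0.29 against parental A498 (interval from -0.60 to 0.03, adjusted p = 0.092) and -0.25 against parental 786-O (interval from -0.55 to 0.06, adjusted p = 0.15), neither of which was called. Both were called without a filter on low counts (-0.24, adjusted p = 0.016, and -0.26, adjusted p = 0.011) and with the 2 groups fitted alone (-0.29, adjusted p = 0.00040, and -0.21, adjusted p = 0.0017), and the second also with the trend removed (-0.42, adjusted p = 0.017). Between the parental lines the value was -0.04 (adjusted p = 0.80), and 0.41 with the trend removed (adjusted p = 0.015). UCN2 overlaps PFKFB4 on the same strand and had 169 to 990 counts, so reads in shared exons may be missing from either gene.

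TIGAR (chromosome 12, 4307763 to 4360028, plus strand), whose product opposes the PFKFB kinases, was at 4.07, 3.77 and 4.12 CPM in parental 786-O, 2.84, 3.75 and 3.21 CPM in resistant 786-O, 4.66, 4.27 and 4.49 CPM in parental A498 and 4.92, 4.45 and 4.58 CPM in resistant A498. All resistant 786-O libraries were below all others, and resistant A498 overlapped with parental A498. The fall in resistant 786-O was -0.29 on the log2 scale (SE 0.11, adjusted p = 0.032) and -0.41 without replicate 2 (adjusted p = 0.0022), but it was -0.15 and not called when libraries were scaled by size alone (adjusted p = 0.24). Its call was also lost without parental 786-O replicate 1 or 3 (-0.28 and -0.27) and without resistant 786-O replicate 1 or 3 (-0.17 and -0.26). It was lost as well without a filter on low counts (-0.30), with at least 10 counts in every library (-0.24), with the 2 groups fitted alone (-0.26), with thinning (-0.17) and with DESeq2 (-0.28). In resistant A498 the log2 fold change was 0.05 over parental A498 (interval from -0.20 to 0.31, adjusted p = 0.70) and 0.22 over parental 786-O (interval from -0.03 to 0.47, adjusted p = 0.11), which became -0.14 and -0.02 with the GC and length trend removed. The value over parental 786-O was called at 0.37 once scaled by library size alone (adjusted p = 0.010), 0.35 with thinning (adjusted p = 0.030), 0.27 with at least 10 counts in every library (adjusted p = 0.047) and 0.26 with the 2 groups fitted alone (adjusted p = 0.026). A second gene model of the annotation, at 0 counts in every library, shares the strand with TIGAR, and reads in shared exons may have been left unassigned.

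The changes in the 2 resistant lines, each against its own parental line, were also tested against each other, a test that called 5 of the 9 genes (1 higher and 4 lower) and 68.3% of all genes (33.9% higher and 34.4% lower). The rise of SLC2A3 was 0.50 larger on the log2 scale in resistant A498 (SE 0.21, adjusted p = 0.042). That call was lost when any 1 of 10 libraries was left out, with differences from 0.38 to 0.54 and an adjusted p of 0.091 at most, and was held without resistant 786-O replicate 2 (0.77) and without parental A498 replicate 1. With all 12 libraries the call was missed with library sizes not adjusted by TMM (0.43, adjusted p = 0.071), at least 10 counts in every library (0.42, adjusted p = 0.089), the GC and length trend removed (0.47, adjusted p = 0.066) and DESeq2 (0.47, adjusted p = 0.061). For SLC2A6, PFKFB2 and PFKFB3 the change in resistant A498 was smaller than that in resistant 786-O, by differences of -0.52, -0.77 and -0.27, and the fall of SLC2A12 was deeper, with a difference of -1.07 (SE 0.24, adjusted p = 0.0012). With the GC and length trend removed, the differences of SLC2A6 and PFKFB3 turned to 0.56 (adjusted p = 1.2e-06) and 0.34 (adjusted p = 0.0025), called in the other direction. The test did not call SLC2A1 (0.02, interval from -0.16 to 0.20), PFKFB4 (0.19, interval from -0.25 to 0.62) or TIGAR (0.35, interval from -0.01 to 0.70). With the trend removed it called SLC2A1 (0.51, adjusted p = 0.00011) and PFKFB4 (0.79, adjusted p = 0.0029). Without resistant 786-O replicate 2, SLC2A1 (0.12, adjusted p = 0.040) and TIGAR (0.46, adjusted p = 0.011) were called as well. The difference of PFKFB4 was then 0.0013, that of PFKFB3 -0.19 and that of SLC2A12 -0.97. Since the resistant A498 libraries resembled parental 786-O more than parental A498 over all genes, the 9 genes were placed by the distance of their mean log2 level: those of SLC2A3, SLC2A6, SLC2A8, SLC2A12 and PFKFB4 were nearer to parental 786-O, and those of SLC2A1, PFKFB2, PFKFB3 and TIGAR nearer to parental A498. For PFKFB2 the distance was 0.39 to parental A498, 1.50 to parental 786-O and 0.34 to resistant 786-O.

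**Figure D3:**
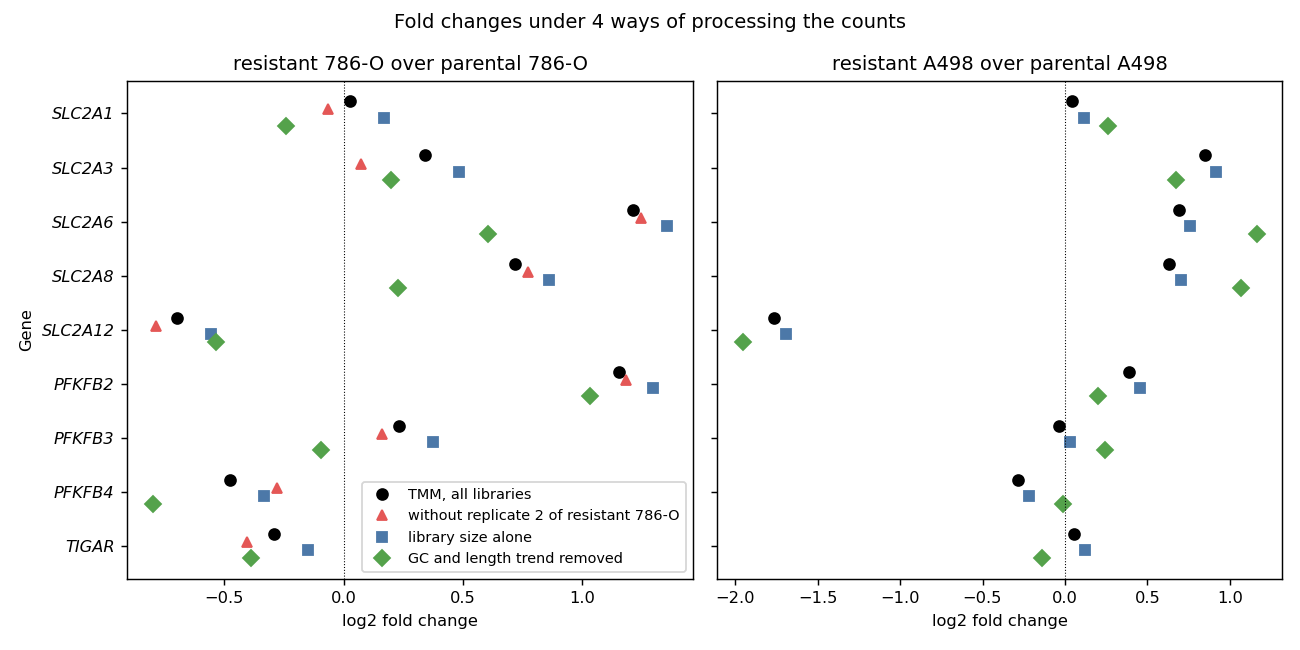
Log2 fold change (x axis) of each gene (y axis) in resistant 786-O over parental 786-O (left) and resistant A498 over parental A498 (right) under 4 ways of processing; leaving out resistant 786-O replicate 2 applies to the left side alone. Removing the GC and length trend lowered SLC2A6 to 0.61 and SLC2A8 to 0.23 on the left and raised them to 1.16 and 1.07 on the right.

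Levels of different genes can be set side by side only per length. Per kilobase of annotated exon, SLC2A1 made up most of the transcript of the 5 transporters in every library. Its share of their summed CPM per kilobase was 80.6 ± 0.307% in parental 786-O (SD, n = 3), 66.8 ± 2.90% in resistant 786-O, 82.9 ± 0.432% in parental A498 and 76.1 ± 0.113% in resistant A498. SLC2A6 was second, with 13.9 ± 0.272% in parental 786-O and 26.4 ± 2.62% in resistant 786-O, 11.5 ± 0.460% in parental A498 and 16.5 ± 0.240% in resistant A498. The share of SLC2A1 was thus lower in both resistant groups than in their parental groups, with no overlap of libraries, while its own level was not called changed in either. SLC2A8 held 3.32% to 5.18% of the group sums, SLC2A3 1.55% to 2.67% and SLC2A12 0.0551% to 0.641%. The summed level of the 5 was 190 ± 5.39 CPM per kilobase in parental 786-O, 233 ± 15.8 in resistant 786-O, 157 ± 3.36 in parental A498 and 176 ± 0.734 in resistant A498. When each gene was divided by its longest transcript in place of the union of its exons, the share of SLC2A6 was 7.90% in parental 786-O and 16.0% in resistant 786-O, so the shares depend on the length used. No test was run on the shares.

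Among the PFKFB enzymes, PFKFB3 predominated, with 83.9 ± 0.352% of the summed CPM per kilobase in parental 786-O, 83.5 ± 2.91% in resistant 786-O, 76.0 ± 1.33% in parental A498 and 74.5 ± 0.809% in resistant A498. PFKFB2 held 5.10 ± 0.0956% in parental 786-O and 9.68 ± 0.805% in resistant 786-O, and 11.8 ± 0.0884% in parental A498 and 15.5 ± 0.380% in resistant A498. PFKFB4 held 11.0 ± 0.257%, 6.79 ± 2.13%, 12.2 ± 1.33% and 10.0 ± 0.596% in the same order. PFKFB4 exceeded PFKFB2 in parental 786-O, PFKFB2 exceeded PFKFB4 in resistant 786-O and resistant A498, and in parental A498 the 2 were within the spread of PFKFB4. The order depended on the length used. With the longest transcript, PFKFB4 held 10.8%, 5.66% and 9.13% and PFKFB2 10.5%, 9.15% and 10.5% in replicates 1 to 3 of resistant 786-O, so that PFKFB4 was slightly the higher in replicate 1 and replicate 2 stood apart. In parental A498, PFKFB4 then held 13.5%, 15.2% and 16.7% against 11.9% to 12.1% for PFKFB2, above it in all 3 libraries.

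**Figure D4:**
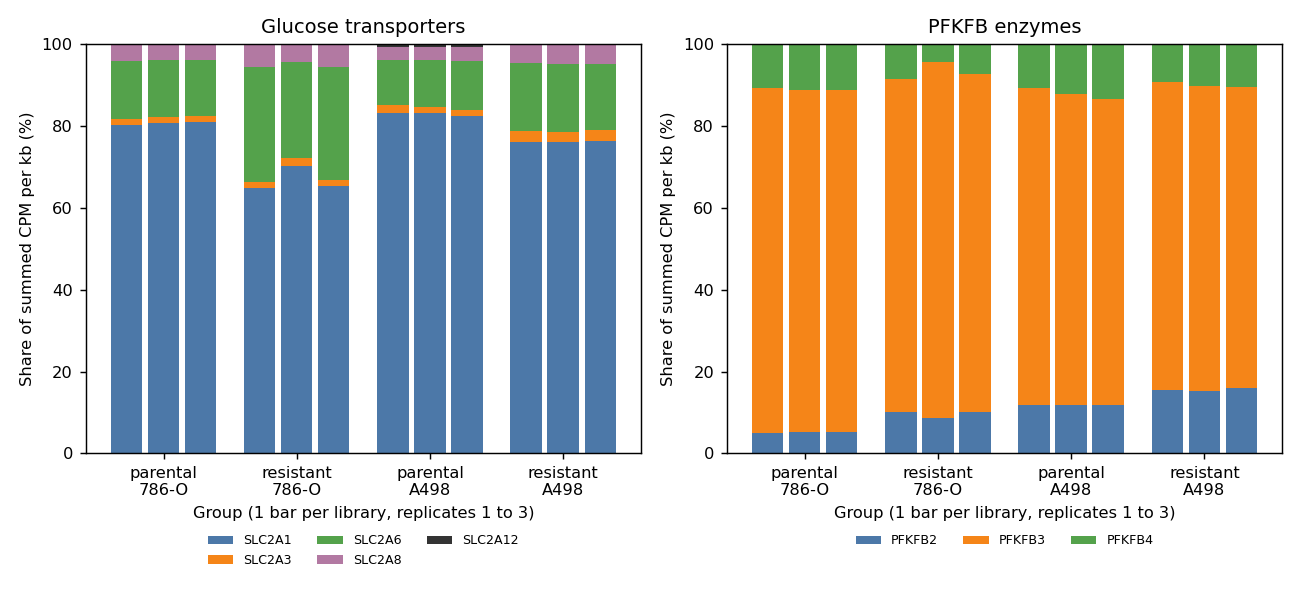
Share of the summed CPM per kilobase of exon (y axis, %) held by each of 5 glucose transporters (left) and 3 PFKFB enzymes (right), with 1 bar per library, grouped by cell line (x axis). The SLC2A6 part widens from 13.9% in parental 786-O to 26.4% in resistant 786-O, and the PFKFB2 part from 5.10% to 9.68%.

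The other genes of glucose handling were taken from 4 lists. Of 20 glycolysis enzymes tested, 6 were higher and 11 lower in resistant 786-O than in parental 786-O (median log2 fold change -0.20), 7 were higher and 9 lower in resistant A498 than in parental A498 (median -0.14), and 4 were higher and 11 lower in resistant A498 than in parental 786-O (median -0.24). In resistant 786-O the triose phosphate isomerase TPI1 (-0.89, SE 0.04) and the dehydrogenase GAPDH (-0.86, SE 0.04) were lower and PGAM2, a phosphoglycerate mutase at no more than 5.99 CPM, was higher (2.18, SE 0.12). HK2, the hexokinase that traps glucose after its entry, was lower in both resistant lines. Its log2 fold change was -0.78 in resistant A498 (SE 0.07), with group means of 57.2 CPM in parental A498 and 33.2 in resistant A498. In resistant 786-O it was -0.71 (SE 0.07), with 52.1 CPM in parental 786-O and 31.8 in resistant 786-O. The neuronal enolase ENO2 and the aldolase ALDOC showed the largest values between resistant A498 and parental A498, 4.15 and -4.64, and they stood at 3.78 and -3.29 between parental 786-O and parental A498. HKDC1, a hexokinase-like enzyme, was at 300 CPM in resistant A498 and 141 in parental 786-O (log2 1.09, SE 0.09). Parental A498 was at 212 CPM, and the log2 fold change of resistant A498 over it was 0.50 (SE 0.09).

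In a list of 12 genes made up of other transporters and PFKFB1, 8 were tested, of which 2 were higher and none lower in resistant 786-O, and 2 were higher and 4 lower in resistant A498 than in parental A498. The fructose transporter SLC2A5 was at 6.47 CPM in parental A498, 1.57 in resistant A498 and under 1 CPM in parental 786-O and resistant 786-O, with a log2 fold change of -2.05 (SE 0.25) between resistant A498 and parental A498. The myo-inositol transporter SLC2A13 rose from 7.59 to 16.2 CPM in resistant A498 (log2 1.10, SE 0.11), and the sodium-coupled SLC5A2 had log2 fold changes of 0.30 (SE 0.08) in resistant 786-O and -0.60 (SE 0.08) in resistant A498. PFKFB1, the liver and muscle isoform, was under 1 CPM in all groups and had log2 fold changes of 1.96 (SE 0.51, adjusted p = 0.0031) in resistant 786-O and 1.80 (SE 0.72, adjusted p = 0.035) in resistant A498. Of 6 gluconeogenesis enzymes, 3 were tested, of which FBP2 was under 1 CPM in all groups. All 3 were higher in resistant 786-O, and 1 was higher and 1 lower in resistant A498 than in parental A498. The mitochondrial PCK2 was among the higher in both, at 0.84 (SE 0.04) and 0.97 (SE 0.04), and the glucose phosphatase G6PC3 at 0.52 (SE 0.06) and -0.66 (SE 0.06). Of 12 genes of GLUT trafficking and glucose sensing, 4 were higher and 7 lower in resistant 786-O, and 6 higher and 5 lower in resistant A498 than in parental A498. Among them the Rab regulator TBC1D4, which holds GLUT4 vesicles inside the cell, was -0.70 (SE 0.06) in resistant 786-O and 0.23 (SE 0.06) in resistant A498. SLC2A4, which encodes GLUT4, was at 0.34 CPM in parental A498 and lower in the other groups. The glucose sensor MLXIP was -0.60 (SE 0.05) in resistant 786-O and -1.07 (SE 0.05) in resistant A498. ARRDC4, an arrestin-like target of that sensor, was 0.81 (SE 0.09) in resistant 786-O and -0.94 (SE 0.09) in resistant A498. Each list share is read against the background of its own comparison. That was 68.5% of all genes called in resistant 786-O (33.5% lower) and 72.7% in resistant A498 over parental A498 (36.4% lower). For resistant A498 over parental 786-O it was 63.6% (32.1% lower). Whether a list differs from all genes was not tested.

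**Figure D5:**
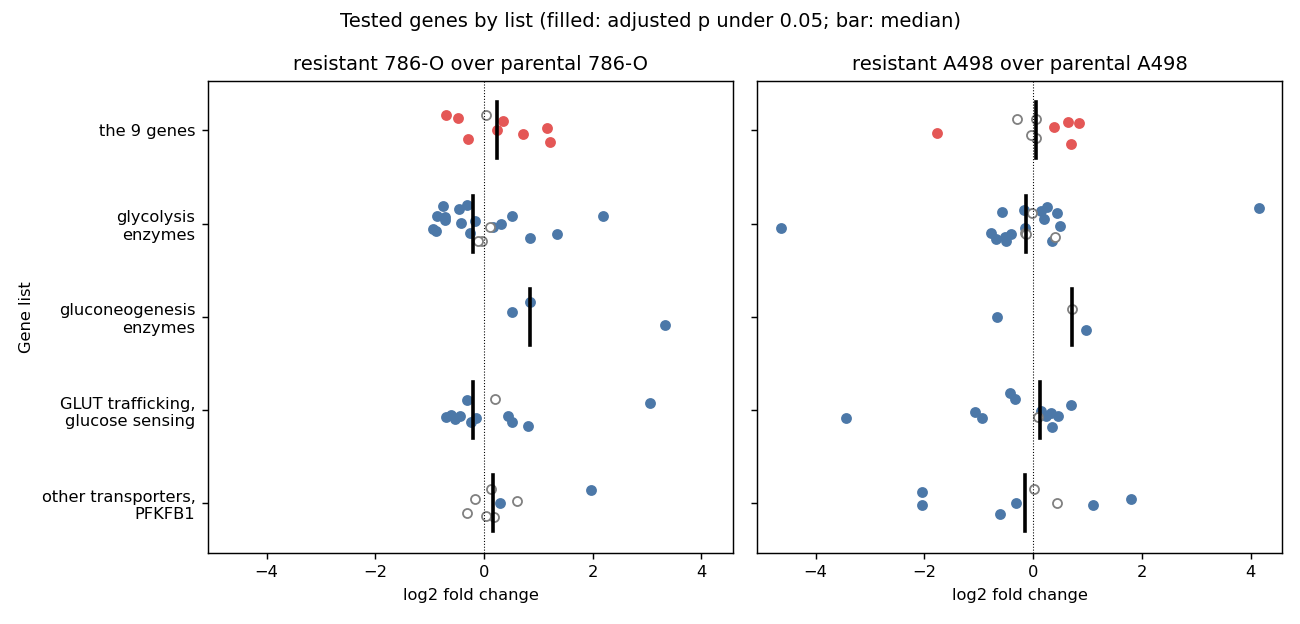
Log2 fold change (x axis) of the tested genes in each list (y axis) for resistant 786-O over parental 786-O (left) and resistant A498 over parental A498 (right); filled points had an adjusted p under 0.05 and bars are medians. The glycolysis enzymes have medians of -0.20 and -0.14, and the 9 genes followed here have medians of 0.23 and 0.05.

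The genes whose log2 CPM over the 12 libraries was most alike to each member were sought among 10069 genes averaging 10 CPM or more. The libraries of a group share their batch label, and the values are descriptions with no test. The closest were GAS6 (r = 0.997) and NOTCH1 (r = 0.992) for SLC2A8, ST6GAL1 (r = 0.996) and ADAR (r = 0.995) for PFKFB2, and MFSD10 (r = 0.991) and SLC27A4 (r = 0.990) for SLC2A6. LRBA (r = 0.989) and DCAF12 (r = 0.986) came closest to SLC2A12, SNAPC2 (r = 0.981) and TMEM262 (r = 0.968) to SLC2A1, and KIF18B (r = 0.969) and CNTROB (r = 0.951) to PFKFB4. The remaining members had ZNF317 (r = 0.966) and RAB7A (r = 0.945) for SLC2A3, MAX (r = 0.953) and NFS1 (r = 0.951) for TIGAR, and TICAM1 (r = 0.952) and STPG1 (r = 0.951) for PFKFB3.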

How the data were processed

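The authors deposited raw gene counts, with no normalization. Per the study's methods and the submitters' processing notes, reads were demultiplexed (bcl2fastq 2.19.0), trimmed (Trimmomatic 0.36.6), aligned to GRCh38 (HISAT2 2.1.0) and counted over exons by strand (featureCounts 1.6.3, GENCODE 33). Groups came from the sample labels. In R 4.3.3, genes were filtered with filterByExpr (19929 of 45478 kept), normalized by TMM and fitted with edgeR 4.0.16 (quasi-likelihood, 4 group means, 12 libraries), with Benjamini-Hochberg adjustment over all genes tested and a threshold of 0.05. DESeq2 1.42.0 served as an alternative. Exon lengths, GC content and positions came from GENCODE 44 (GRCh38) and promoters from RefSeq (GRCh38.p14). Figures were drawn with Python 3.11.15, pandas 2.3.3 and matplotlib 3.10.9. The code was tested on simulated data. The members and lists were chosen with earlier results of these data known. Named list genes are the 3 called genes with the largest absolute log2 fold change per list and comparison, among those averaging 5 CPM or more in the group where they were higher, and some of them are given. PFKFB1, SLC2A4 and FBP2 are named outside this rule, with their low levels. No 2 replicate libraries agreed within sampling noise. Depth was 20042519 to 47972092 counts per library, so low genes such as SLC2A12 are the least precise. Alternatives were other scalings, filters, the replicate number as a block, a trend correction, thinning and leaving out each library.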

Additional observations from a re-analysis of the deposited data

Results flagged for a closer look

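For 5 genes the change from the parental to the resistant line differed between A498 and 786-O in the interaction test of the edgeR fit, with Benjamini-Hochberg adjustment, which called 68.3% of all genes tested. The difference is the change in A498, resistant minus parental on the log2 scale, minus the same change in 786-O. It was 0.50 for SLC2A3 (SE 0.21, adjusted p = 0.042), where all 3 resistant A498 libraries were above all parental A498 libraries and resistant 786-O replicate 1 lay between those of parental 786-O. Its call was lost when any 1 of 10 libraries was left out, and with scaling by library size alone, at least 10 counts in every library, the GC and length trend removed or DESeq2. For SLC2A6 it was -0.52 (SE 0.08, adjusted p = 2.5e-05), with all 3 resistant libraries above the parental ones in both lines, and it turned to 0.56 (adjusted p = 1.2e-06) with the GC and length trend removed. It was -1.07 for SLC2A12 (SE 0.24, adjusted p = 0.0012), lower in all 3 resistant libraries of each line, and -0.77 for PFKFB2 (SE 0.07, adjusted p = 2.9e-07), higher in all 3 of each. For PFKFB3 it was -0.27 (SE 0.08, adjusted p = 0.0087), with all 3 libraries of resistant 786-O above parental 786-O and resistant A498 overlapping with parental A498, and it turned to 0.34 (adjusted p = 0.0025) with that trend removed. The resistant A498 libraries were nearer to parental 786-O than to parental A498 over all genes, and the part of this in the differences was not tested. Groups of 3 libraries were too small for a search for outlying values.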

How the results depend on the processing

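Removing the GC and length trend turned the log2 fold change to -0.24 for SLC2A1 and -0.10 for PFKFB3 in resistant 786-O over parental 786-O, to 0.24 for PFKFB3 and -0.14 for TIGAR in resistant A498 over parental A498, to -0.13 for SLC2A6, -0.057 for SLC2A8 and -0.022 for TIGAR in resistant A498 over parental 786-O, to 0.41 for PFKFB4 in parental 786-O over parental A498, and to 0.56 for SLC2A6, 0.84 for SLC2A8 and 0.34 for PFKFB3 in the difference of the changes. The cause was not tested. Values near 0 turned elsewhere: PFKFB3 in resistant A498 over parental A498 to 0.032 by library size alone and 0.0043 without a filter, PFKFB4 in parental 786-O over parental A498 to 0.014 without a filter, and the difference of SLC2A1 to -0.056 by library size alone, -0.064 with at least 10 counts in every library, -0.011 with thinning and -0.014 with DESeq2. With each library left out in turn, these ran from -0.065 to 0.12 for SLC2A1 in resistant 786-O and -0.041 to 0.12 for its difference. For PFKFB4 in parental 786-O over parental A498 they ran from -0.10 to 0.015. For PFKFB3 in resistant A498 over parental A498 they ran from -0.075 to 0.010. The count of members called between resistant A498 and parental 786-O ran from 3 to 6, beside 11650 to 11839 of all genes. The 3 came without resistant A498 replicate 1, where 11792 of 20731 genes were called. Requiring a log2 fold change beyond 1 left 2, 1, 1, 2 and 1 members and 4382, 6137, 3983, 6360 and 6998 genes in resistant 786-O over parental 786-O, resistant A498 over parental A498, resistant A498 over parental 786-O, parental 786-O over parental A498 and the difference. The study's test of raw counts, unadjusted, called 4 members and 8211 genes in resistant 786-O and 1 and 6222 in resistant A498 against parental A498.

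In the pairs of groups compared, same-numbered replicates did not vary together (correlations from -0.18 to 0.098). This does not settle whether the numbers pair samples. With the replicate block, 7 members and 13497 of 19929 genes were called in resistant 786-O, against 8 and 13645 without it. SLC2A3 in resistant 786-O (0.33, adjusted p = 0.051) and SLC2A6 in resistant A498 over parental 786-O (0.13, adjusted p = 0.058) lost their calls in the edgeR fit with the block. Of 675 values of the members under the alternatives, 584 kept direction and side of the threshold, 49 lost a call, 20 gained one and 22 turned. Counts of 28 to 53 limit SLC2A12 in parental 786-O and resistant 786-O.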
